A study of Mus musculus with 2 samples.

Results

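Translation factors are the proteins that load ribosomes onto mRNA, carry tRNA to them, move them along and release the finished chain. Their mRNA levels were compared between an ID2-overexpressing culture and an empty-vector control culture of 46C mouse embryonic stem cells. The genes were taken by symbol: every Eif or Eef symbol followed by a digit, plus Etf1, Gspt1 and numbered Pabpc genes, with a mean value of at least 50 over both libraries. The rule found 69 symbols among the 14398 genes of the deposited table, and 67 of them passed the floor of 50 that 12679 genes in all passed. Just outside it lay Eif4ebp3 (mean 26.5) and Eif3s6-ps2 (mean 42.0), and just inside it lay Eef1a2 (mean 91.9) and Eif4e3 (mean 108).

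Each group had 1 library. The ID2 group (PB-ID2) carried a vector for ID2, a helix-loop-helix protein that binds E proteins and keeps them off DNA, and the control group (PB) carried the empty vector. Both were 46C cells at passages 21 to 24, a line with a GFP reporter in Sox1, grown in serum medium with LIF on gelatin-coated plates. The labels say neither whether the cells were a clone or a pool, nor give a second culture. Without replicates, no error or p-value was computed for the differences below, each is between 2 cultures, and the p-values quoted are the authors'.

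Translation starts when eIF2 brings the initiator tRNA to the small ribosomal subunit, eIF3 and the scanning factors help it find the start codon, and eIF4F binds the mRNA cap. eIF2B recharges eIF2 with GTP, and kinases that phosphorylate eIF2 block that step under stress. eEF1A and eEF2 then drive elongation, and eRF1 and eRF3 end it. Many of these mRNAs are among the most abundant of growing cells.

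Values are the authors' normalized values on an arbitrary scale, and ratios are log2 of the ID2 over the control value after adding 1 to each, which understates ratios of low genes. Id2 stood at 26225 in the ID2 library, against 324 in the control library. All 10 listed stem cell markers were present in both libraries. In the ID2 library 7 were higher, 2 lower and 1 equal in rank, beside 47.2% of all genes above the floor that were higher. Zfp42 had the highest ratio, at 16218 in the ID2 library and 9009 in the control library (0.85). Fgf4 had the lowest, at 6932 in the ID2 library and 8157 in the control library (−0.23). Pou5f1 stood at 13619 in the ID2 library and 12769.9 in the control library. Sox2 stood at 15076 in the ID2 library and 11692 in the control library, and Nanog at 17563 in the ID2 library and 14938 in the control library. Of 14 fibroblast and feeder cell markers, 8 had a row, and they summed to 1676 in the ID2 library and 2598 in the control library. Thy1 and Pdgfrb made up most of that sum, and 7 of the 8 were lower. Of the 5 above the floor 4 were lower, beside 6534 of the 12679 genes above the floor. Col1a2, Acta2 and Tnc lay under the floor. Col1a1 stood at 139 in the ID2 library and 339 in the control library, Fbln2 at 58.3 in the ID2 library and 187 in the control library, Col1a2 at 7.03 in the ID2 library and 39.8 in the control library, and Acta2 at 6.03 in the ID2 library and 77.6 in the control library. Loxl1 was higher at 262 in the ID2 library, against 191 in the control library. Of 11 extraembryonic endoderm markers 7 had a row, with sums of 9901 in the ID2 library and 10159.6 in the control library, most of it from Lama1 and Lamb1. Sox7 stood at 127 in the ID2 library and 16.9 in the control library, and Gata4 at 76.4 in the ID2 library and 146 in the control library. Of 10 trophectoderm markers 7 had a row, with sums of 3549 in the ID2 library and 5158 in the control library, most of it from Tfap2c. Krt7 stood at 6.03 in the ID2 library and 73.6 in the control library, while Eomes was higher at 219 in the ID2 library, against 163 in the control library. The rows missing included the defining fibroblast genes Col3a1, Dcn and Postn, the endoderm genes Sox17 and Foxa2, and the trophectoderm genes Cdx2 and Elf5. Single markers of other cell types were picked here with their values in view. The part of other cells in the results below was not tested.

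As a group the translation factors stood at nearly the same level, relative to all genes, in both libraries. Their median log2 ratio was 0.01, beside −0.00 over all 12679 genes. Of the 67 genes, 32 were higher in the ID2 library (47.8%, beside 47.2% of all genes), 30 were lower and 5 were equal in rank. The members made up 3.14% of the summed values of the ID2 library and 3.12% of those of the control library. Without Eef1a1 and Pabpc1, at the highest value of each library, the shares were 2.20% and 2.18%. Apart from a fixed scale both libraries hold the same sorted values, so a shift common to all genes could not show. The members' median of 0.01 is also the ratio of a gene with equal rank in both. At 2-fold, 0 members were higher and 1 was lower, against 2.53% and 1.86% of all genes above the floor. At 1.5-fold, 0 members were higher and 2 were lower, against 8.00% and 6.59% of all genes. In 8 members (11.9%) the ID2 value was at least 25% above the control value, and in 7 (10.4%) the control value was at least 25% above the ID2 value, against 18.2% and 16.4% of all genes. Ratios spread less at high levels, and 56 of the 67 genes had means of at least 1000. Among these 56 genes, 6 were higher (10.7%) and 2 lower (3.57%) by that 25% rule, against 11.7% and 9.05% of all 5459 genes at that level. The middle 90% of the members' ratios ran from −0.41 to 0.45, and that of all genes above the floor from −0.67 to 0.74. The authors' deposited table gives 2 members (2.99%) an unadjusted p under 0.05, Eif2s3y (0.0218) and Eif4e2 (0.0365), beside 3.85% of all its genes. The adjusted p in the authors' deposited table is 1 for all 67 members and under 0.05 for 26 of 14398 genes.

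**Figure D1:**
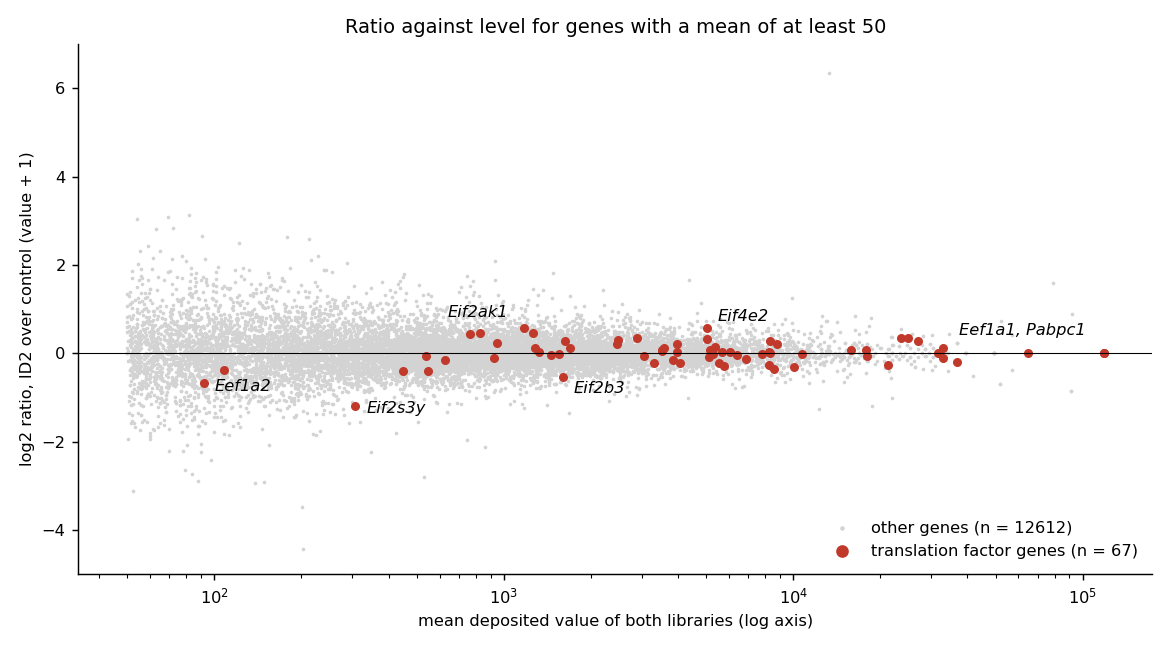
Log2 ratio of the ID2 over the control library (vertical axis) against the mean deposited value of both libraries (horizontal log axis), for 67 translation factor genes (red) and the other genes above the floor (grey). Most red points lie between −0.41 and 0.45, Eif2s3y lies lowest at −1.19, and Eef1a1 and Pabpc1 share the highest level.

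The highest values have a structure of their own. Of the 500 genes that ranked highest in the control library, 498 differed in rank between the libraries by 0 or by a multiple of 10, and so did all 21 members among them. The table thus holds blocks of 10 values, with 118714 as the value of the top block in the ID2 library and 117568 in the control library. In the control library the second block ends at 64122 and the third starts at 49187, a gap of 0.38 on the log2 scale with no gene in it. Of those 21 members, 5 stood in the same rank in both libraries and 8 stood 10 ranks apart. All but 2 of the 500 genes were thus in the same rank or at least 10 ranks apart, so ratios of the most abundant factors come in coarse steps. Among members in the next 1500 ranks, 19 of 23 differed by a multiple of 10, and among the 13 ranked below 5000 only 1 did.

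Eef1a1 and Pabpc1 shared the highest value of the members, and Eef2 came next. Eef1a1, which carries aminoacyl-tRNA to the ribosome, and Pabpc1, the main cytoplasmic poly(A)-binding protein, both stood at 118714 in the ID2 library and at 117568 in the control library. That is the shared highest value of each library, so their log2 ratio of 0.01 is set by this ceiling. Eef2, which moves the ribosome along the mRNA, stood at 64789.5 in the ID2 library and 64164 in the control library, in rank 19 in both. Eef1g and Eef1d, which belong to the exchange factor of eEF1A, were also equal in rank. Eef1g stood at 31828 in the ID2 library and 31521 in the control library, and Eef1d at 8333 in the ID2 library and 8253 in the control library. Eef1b2, the other exchange subunit, stood lower at 19394 in the ID2 library, against 23262 in the control library (−0.26). Eef1e1, a scaffold protein of the tRNA synthetase complex, stood at 1542 in the ID2 library and 1554 in the control library.

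Per kilobase of transcript no level is given for Eef1a1 and Pabpc1, because both are at the ceiling. Per kilobase, Eef2 stood at 20974 in the ID2 library and 20772 in the control library. The scaffold subunit Eif4g1 stood lower, at 2881 per kilobase in the ID2 library and 2738 in the control library, and the cap binder Eif4e at 747 in the ID2 library and 877 in the control library. Eef1a2, the eEF1A form known from muscle and neurons, stood at 70.3 in the ID2 library and 113 in the control library, a log2 ratio of −0.68 (1.6-fold lower). It was the lowest of the 67 genes in level, and the middle 90% of all genes with means from 50 to 250 ran from −1.07 to 1.18. Eef2k, the kinase that inactivates eEF2, stood higher at 880.3 in the ID2 library, against 647 in the control library (0.44). Eef2kmt, which methylates eEF2, stood at 1019 in the ID2 library and 869.8 in the control library (0.23).

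Eif2s3y had the largest difference of all members. It encodes the γ subunit of eIF2 from the Y chromosome, and Eif2s3x encodes it from the X chromosome. Eif2s3y stood at 187 in the ID2 library and 428 in the control library, a log2 ratio of −1.19 (2.28-fold lower). The middle 90% of all genes with means from 250 to 1000 ran from −0.61 to 0.71. Eif2s3x stood at 4958 in the ID2 library and 5300.2 in the control library (−0.10). Of the summed value of both copies, Eif2s3y made up 3.63% in the ID2 library and 7.47% in the control library. The sum was 5145 in the ID2 library and 5728 in the control library, and both copies were lower in the ID2 library.

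The copies differ in sequence throughout, as the following coding stretch shows. It is taken from coding exon 11 of both genes in GENCODE M21 transcripts (GRCm38), Eif2s3y at chrY:1023302-1023421 on the plus strand and Eif2s3x at chrX:94196325-94196444 on the minus strand, and capitals mark the 16 of 120 bases at which the copies differ.
Eif2s3y: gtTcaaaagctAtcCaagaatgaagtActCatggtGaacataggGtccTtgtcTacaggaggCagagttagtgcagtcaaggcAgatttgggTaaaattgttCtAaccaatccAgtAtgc
Eif2s3x: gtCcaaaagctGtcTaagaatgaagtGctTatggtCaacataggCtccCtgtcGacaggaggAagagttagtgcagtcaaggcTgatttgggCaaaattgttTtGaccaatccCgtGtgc
Over the whole coding sequence of 1416 bases the copies differed at 194 bases (86.3% identity), and the longest identical run was 34 bases. Of 1787 windows of 50 bases in the Eif2s3y transcript, 0 occurred in the Eif2s3x transcript.

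The other Y-linked genes, chosen after their values were seen, were also lower in the ID2 library. The table held 5 genes that GENCODE places on the Y chromosome. Ddx3y, an RNA helicase, stood at 127 in the ID2 library and 264 in the control library (−1.05). Uty, a relative of a histone demethylase, stood at 50.2 in the ID2 library and 116 in the control library (−1.20). Uba1y, a ubiquitin-activating enzyme, stood at 34.2 in the ID2 library and 77.6 in the control library (−1.16), and Zfy1, under the floor, at 18.1 in the ID2 library and 32.8 in the control library (−0.83). All 5 were lower, each by a fold between 1.77 and 2.29. The median over the 4 Y-linked genes above the floor was −1.18, while medians of the 19 autosomes ran from −0.04 to 0.04 and that of 417 X-linked genes was −0.07. In a bulk library, fewer cells with a Y chromosome and less Y-linked RNA per cell cannot be told apart.

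**Figure D2:**
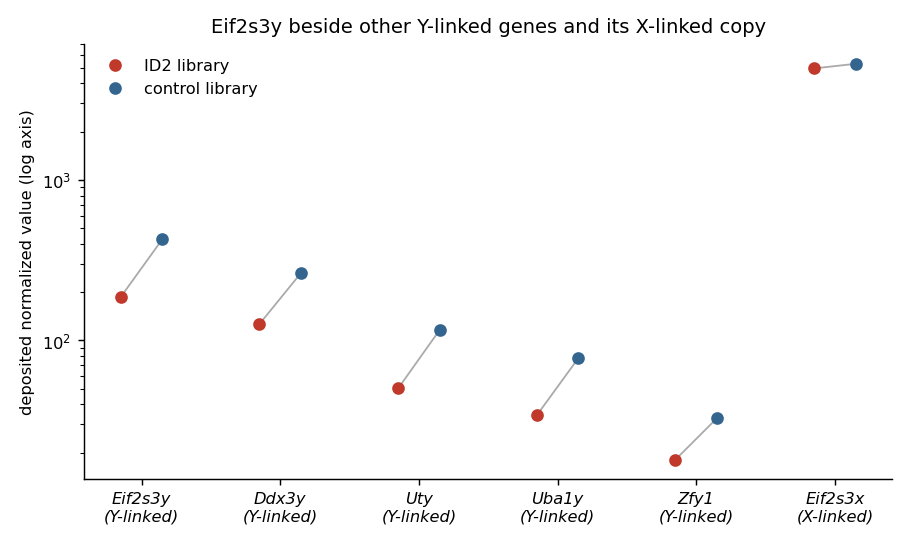
Deposited normalized values (log axis) of the 5 Y-linked genes in the table and of the X-linked Eif2s3x, in the ID2 library (red, left) and the control library (blue, right). Each Y-linked gene is lower in the ID2 library, by 1.77- to 2.29-fold, while Eif2s3x is at 4958 in the ID2 library and 5300.2 in the control library.

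The remaining eIF2 genes differed little. Eif2s1, the α subunit that the stress kinases phosphorylate, stood at 5269 in the ID2 library and 5338 in the control library (−0.02). Eif2s2, the β subunit, stood at 18411 in the ID2 library and 17411 in the control library (0.08), which is 10 ranks apart. Eif2a (−0.15) and Eif2d (0.14), factors outside the eIF2 complex that can bring tRNA to the ribosome, lay on either side of zero.

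Subunits of eIF2B, the exchange factor of eIF2, differed in opposite directions. Eif2b2, the β subunit, stood at 1465 in the ID2 library and 1066 in the control library (0.46). Eif2b3, the γ subunit, stood at 1306 in the ID2 library and 1901 in the control library (−0.54), the third lowest ratio of the 67 genes. The middle range of ratios, taken as for Eif2s3y above, ran from −0.43 to 0.49 for all genes with means from 1000 to 5000. Eif2b2 lay inside that range and Eif2b3 below it. The ratio of Eif2b2 to Eif2b3, which pairs the highest with the lowest of the 5 subunits, was 1.12 in the ID2 library and 0.561 in the control library. The other subunits lay between Eif2b2 and Eif2b3, with Eif2b4 at 0.12, the catalytic Eif2b5 at 0.11 and Eif2b1 at −0.04. The summed value of the 5 genes was 9688 in the ID2 library and 9509 in the control library.

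Among the 4 kinases of eIF2α, 3 were higher and 1 was lower in the ID2 library, beside 47.2% of all genes that were higher. Eif2ak1 (HRI), known to respond to heme shortage, stood at 1404 in the ID2 library and 939 in the control library. Its log2 ratio of 0.58 (1.49-fold) was the highest of all members and just under the 1.5-fold threshold. Eif2ak2 (PKR), which senses double-stranded RNA, stood at 957 in the ID2 library and 698 in the control library (0.45). Eif2ak3 (PERK), the kinase of the unfolded protein response, was lower at 468 in the ID2 library, against 623 in the control library (−0.41). Eif2ak4 (GCN2), which senses uncharged tRNA, stood at 1342 in the ID2 library and 1314 in the control library (0.03). The middle range of ratios, taken as for Eif2s3y above, ran from −0.61 to 0.71 for all genes with means from 250 to 1000. Eif2ak2 and Eif2ak3 lay inside it. For means from 1000 to 5000 it ran from −0.43 to 0.49, with Eif2ak4 inside it and Eif2ak1 above it. Eif2ak1 made up 33.7% of the summed kinase value in the ID2 library and 26.3% in the control library.

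**Figure D3:**
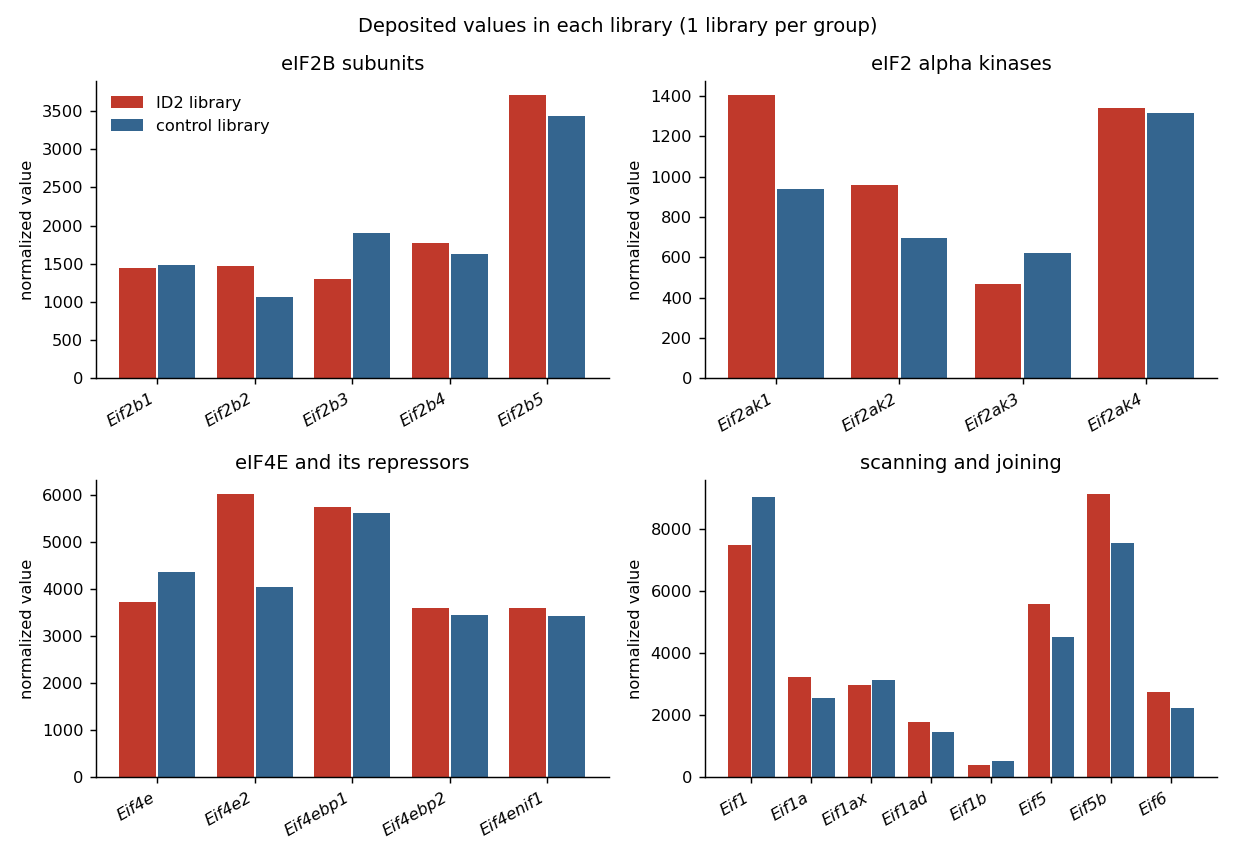
Deposited normalized values in the ID2 library (red) and the control library (blue), with 1 library per group and bars from 0. The sets are eIF2B subunits, eIF2α kinases, eIF4E genes with their repressors, and genes grouped under scanning and joining. Eif2b2 and Eif2b3 differ in opposite directions, as do Eif2ak1 and Eif2ak3, and Eif4e and Eif4e2. Each of these pairs holds the highest and the lowest ratio of the set shown.

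Among the 10 genes grouped here as cap binders or parts of the cap complex, Eif4e2 had the largest difference. The Eif4e2 protein (4EHP) binds the cap but not eIF4G, and is known as a repressor of translation. It stood at 6025 in the ID2 library and 4044 in the control library (0.57, 1.49-fold), the second highest ratio of the members. Eif4e, the main cap binder, was lower at 3730.1 in the ID2 library, against 4376 in the control library (−0.23). The ratio of Eif4e2 to Eif4e was 1.62 in the ID2 library and 0.924 in the control library. Eif4e3, a further cap binder, stood near the floor at 94.5 in the ID2 library and 122 in the control library (−0.37).

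The repressors that hold eIF4E lay close to zero. Eif4ebp1 stood at 5744 in the ID2 library and 5633 in the control library (0.03), and Eif4ebp2 at 3591 in the ID2 library and 3443 in the control library (0.06). Eif4enif1, which carries eIF4E into the nucleus, stood at 3602 in the ID2 library and 3435 in the control library (0.07). The sum of Eif4ebp1 and Eif4ebp2 over Eif4e was 2.50 in the ID2 library and 2.07 in the control library. Phosphorylation, by which mTOR controls these repressors, was not measured.

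Of the scaffold genes, Eif4g2 (DAP5), which lacks the eIF4E-binding part, was higher at 29479 in the ID2 library, against 24289.9 in the control library (0.28, 30 ranks apart). Eif4g1 stood at 16242 in the ID2 library and 15437 in the control library (0.07, 10 ranks apart), and Eif4g3 at 1334 in the ID2 library and 1223 in the control library (0.13). The helicases Eif4a1 and Eif4a2, both subunits of eIF4F, differed in opposite directions by 10 ranks each. Eif4a1 stood at 34282 in the ID2 library and 31442 in the control library (0.12), and Eif4a2 at 31739.6 in the ID2 library and 33944 in the control library (−0.10). Eif4b, a cofactor of the helicase, stood at 34289 in the ID2 library and 39223 in the control library, and its ratio of −0.19 is also a step of 10 ranks. Eif4h, a related cofactor, stood at −0.05. Eif4a3, a helicase of the exon junction complex that the symbol rule includes, stood at 4255 in the ID2 library and 3672 in the control library (0.21).

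Of the 8 genes grouped here under scanning and subunit joining, 5 were higher and 3 lower, beside 47.2% of all genes that were higher. Eif1a, an autosomal eIF1A gene, stood at 3229 in the ID2 library and 2544 in the control library (0.34), while its X-linked copy Eif1ax stood at 2970.4 in the ID2 library and 3119 in the control library (−0.07). Eif1a made up 52.1% of the sum of both in the ID2 library and 44.9% in the control library, and 0 of 2816 windows of 50 bases in its transcript occurred in that of Eif1ax. Eif5, which makes eIF2 hydrolyse GTP at the start codon, stood at 5586 in the ID2 library and 4503 in the control library (0.31). Eif5b, the GTPase that joins the subunits, stood at 9118 in the ID2 library and 7527 in the control library (0.28). Eif6, which keeps the large subunit from joining early, stood at 2738 in the ID2 library and 2223 in the control library (0.30), and Eif1ad, named for its eIF1A-like domain, was 0.28 higher. Eif1, which guards the choice of start codon, was lower at 7492 in the ID2 library, against 9038 in the control library (−0.27). Its relative Eif1b stood at 386 in the ID2 library and 509.5 in the control library (−0.40). The median over the 8 genes was 0.28, beside 0.01 over all members, a difference for which no test was run.

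Of the 14 eIF3 genes, 10 were lower and 4 higher (median −0.06), beside 6534 lower of all 12679 genes. No test was run on this count, which includes Eif3b (−0.01) and Eif3l (−0.02). Eif3a, the largest scaffold subunit, was highest in ratio, at 27971 in the ID2 library and 21909 in the control library (0.35, 40 ranks apart). Eif3h was lowest, at 8978 in the ID2 library and 11218 in the control library (−0.32). Eif3f stood at 5221 in the ID2 library and 6335 in the control library (−0.28), and Eif3i at 5117 in the ID2 library and 5996 in the control library (−0.23). Eif3m (−0.21) and Eif3e (−0.13) were also lower, and Eif3b, Eif3c, Eif3d, Eif3g, Eif3k and Eif3l lay between −0.05 and 0.04. With Eif3a included, the summed value of the complex was 112821 in the ID2 library and 112672 in the control library. Because the fixed scales of the libraries differ, the shares of all values run the other way. They were 0.445% in the ID2 library and 0.449% in the control library. Eif3j1 (−0.11) and Eif3j2 (−0.07) are counted separately among the 14 but cannot be told apart in most reads, since 2115 of 2330 windows of 50 bases in the Eif3j2 transcript (90.8%) also occur in Eif3j1.

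**Figure D4:**
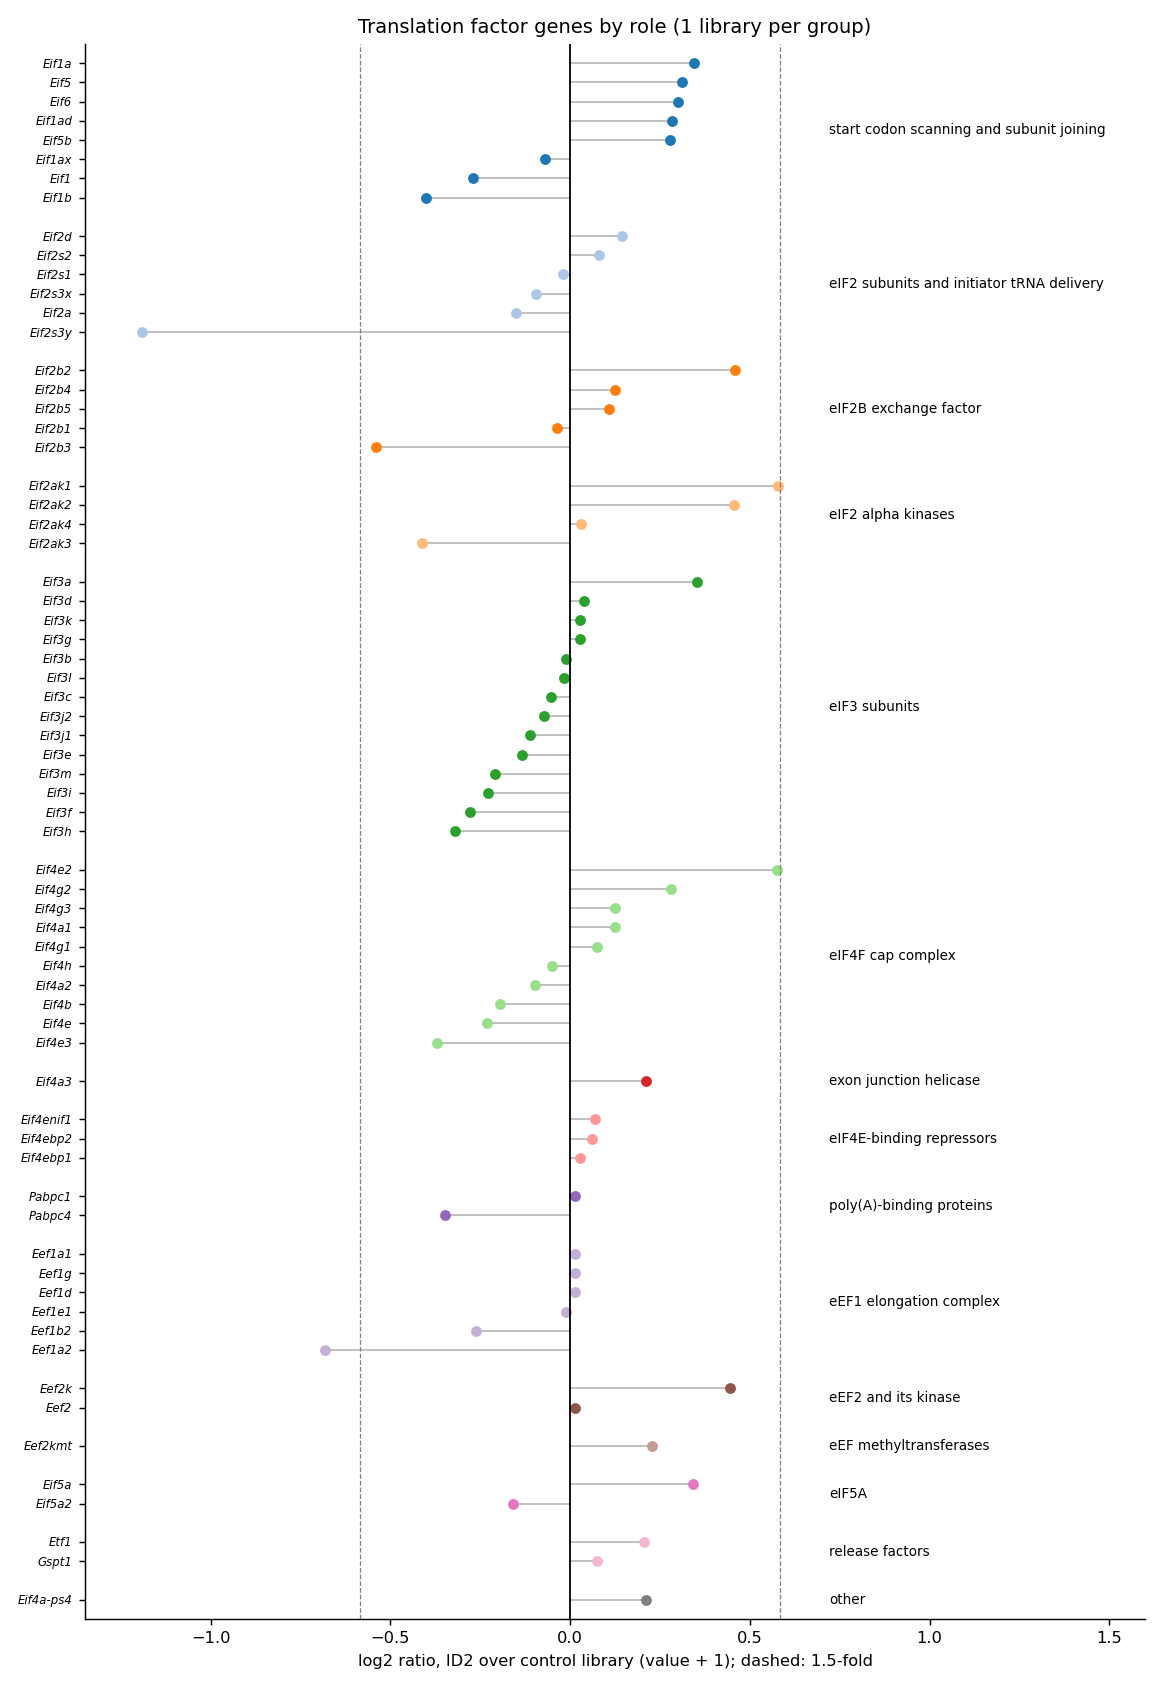
Log2 ratio of the ID2 over the control library for each of the 67 translation factor genes, grouped by role; dashed lines mark 1.5-fold. Only Eef1a2 (−0.68) and Eif2s3y (−1.19) lie beyond a dashed line, 10 of 14 eIF3 genes lie left of zero, and Eif2ak1 and Eif4e2 lie just inside the right line.

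Eif5a, the hypusine-containing factor that helps ribosomes past difficult stretches, stood at 26273 in the ID2 library and 20723 in the control library (0.34, 40 ranks apart). Eif5a2 stood at 591 in the ID2 library and 659.8 in the control library (−0.16), and the ratio of Eif5a to Eif5a2 was 44.5 in the ID2 library and 31.4 in the control library. Pabpc4, an inducible poly(A)-binding protein, was lower at 7555 in the ID2 library, against 9611 in the control library (−0.35). The release factor Etf1 (eRF1) stood at 9397 in the ID2 library and 8154 in the control library (0.20), and its GTPase partner Gspt1 (eRF3a) at 5312 in the ID2 library and 5039 in the control library (0.08). Eif4a-ps4, a processed pseudogene, had 2645 in the ID2 library and 2285 in the control library. Of the 1169 windows of 50 bases in it, 1119 (95.7%) also occur in Eif4a1, so its value cannot be told apart from reads of that gene.

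Genes that act on translation but fall outside the symbol rule were read from lists. Of 29 regulator symbols, 28 had a row, all above the floor. Their median was 0.12, and 18 lay above the control library, 9 below it and 1 level with it. Of all genes above the floor, 47.2% were higher. No regulator was 1.5-fold apart, against 8.00% of all genes that were higher and 6.59% that were lower by that fold. Those farthest from zero were Pdcd4, an inhibitor of eIF4A (758 in the ID2 library and 1068 in the control library, −0.49), Ppp1r15a, which targets a phosphatase to eIF2α (2386 in the ID2 library and 1722 in the control library, 0.47), Atf4, the transcription factor made when eIF2α is phosphorylated (12567 in the ID2 library and 9302 in the control library, 0.43), and Rictor, a subunit of an mTOR complex (1996 in the ID2 library and 2641 in the control library, −0.40).

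Of 10 recycling and rescue factors, 5 were higher and 5 lower (median 0.03), beside 47.2% of all genes that were higher. The farthest were Pelo, which rescues stalled ribosomes (0.36), Gspt2, the second eRF3 gene (0.29), Upf1, a helicase of mRNA decay (−0.26), and Abce1, which splits ribosomes (−0.20). Of 13 genes listed as enzymes that modify or serve the factors, 8 were higher, 4 lower and 1 equal (median 0.08). Of all genes above the floor, 47.2% were higher. Dph2, which makes the diphthamide of eEF2, stood at 533 in the ID2 library and 322 in the control library (0.72), at least 1.5-fold higher, as 8.00% of all genes were. Mettl10 (−0.53), which methylates eEF1A in human cells, Mettl21a (−0.33), and Sepsecs (0.30), which makes selenocysteinyl-tRNA, came next. Mettl21a is in the list and its counts but is not known to modify a translation factor.

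Among these 4 lists of translation genes, the mitochondrial factors had the median farthest from zero. Their median was 0.27 over 11 genes with a row, beside 0.01 for the 67 members. Of the 11 genes, 10 were higher and 1 lower, beside 47.2% of all genes above the floor that were higher. Tufm, the mitochondrial counterpart of eEF1A, stood at 4116 in the ID2 library and 3047 in the control library (0.43). The initiation factors Mtif2 (1041 in the ID2 library and 768 in the control library, 0.44) and Mtif3 (409.98 in the ID2 library and 291 in the control library, 0.50) were higher, as was the release factor Mtrf1l (143 in the ID2 library and 96.5 in the control library, 0.56). None of the 11 was 1.5-fold apart, against 8.00% of all genes that were higher and 6.59% that were lower by that fold. No test of the list was run.

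**Figure D5:**
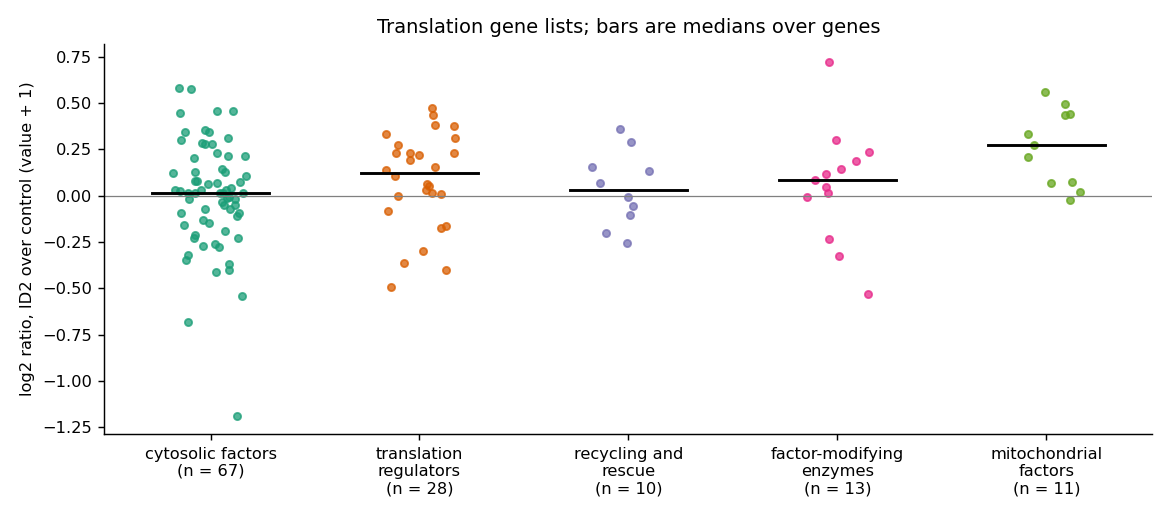
Log2 ratio of the ID2 over the control library for the 67 members of the symbol rule and 4 lists of related genes. Each point is a gene and each bar a median over genes. The members, labelled cytosolic factors in the picture, include Eif4a3, Eef2kmt and the pseudogene Eif4a-ps4. The mitochondrial factors have a median of 0.27 with 10 of 11 genes above zero, and the 67 members a median of 0.01.

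Promoters were searched because Myc, a transcription factor known to act on many translation factor genes through the letters CACGTG, differed between the libraries. Myc stood at 350 in the ID2 library and 80.6 in the control library (2.10), and its relative Mycn, chosen after its values were seen, at 3027 in the ID2 library and 1428 in the control library (1.08). RefSeq promoters (GRCm38.p6, 250 bases before to 50 after the start) matched 52 of the 67 genes. CACGTG reads the same on both strands and is a case of CANNTG, the letters that helix-loop-helix dimers bind. It occurred in 12 of 52 members (23.1%), against 12.1% of 9397 genes above the floor and 8.09% of all 27025 genes with a promoter. A gene was counted if any of its annotated promoters held the letters. No share was taken over genes as highly expressed as the members, so a part of level in this difference was not tested. The median log2 ratio was 0.02 for the 12 members with CACGTG and 0.02 for the 40 without it. CANNTG occurred in 57.7% of members, 66.9% of genes above the floor and 75% of all genes with a promoter.

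Of the 11 members with a match before the start, the 5 with the largest absolute log2 ratio are shown, each by its match nearest to the start, with CACGTG in capitals and 15 bases on each side. They lie at chr7:120842785-120842820 (plus strand, Eef2k), chr9:120492567-120492602 (plus, Eif1b), chr11:69921440-69921475 (minus, Eif5a), chr7:108934332-108934367 (plus, Eif3f) and chr3:138527189-138527224 (plus, Eif4e).
Eef2k: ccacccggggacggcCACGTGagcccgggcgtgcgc
Eif1b: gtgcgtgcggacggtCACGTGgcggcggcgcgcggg
Eif5a: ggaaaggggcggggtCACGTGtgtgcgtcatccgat
Eif3f: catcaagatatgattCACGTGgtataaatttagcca
Eif4e: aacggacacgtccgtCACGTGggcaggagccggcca
The capitals start 31 (Eef2k), 24 (Eif1b), 74 (Eif5a), 68 (Eif3f) and 64 bases (Eif4e) before the nearest annotated start. The log2 ratios by which they were chosen were 0.44 for Eef2k, −0.40 for Eif1b, 0.34 for Eif5a, −0.28 for Eif3f and −0.23 for Eif4e.

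A run of pyrimidines at the very start of an mRNA (TOP) marks many translation factor mRNAs, whose translation follows mTOR. Defined as a C within 20 bases of the start followed by at least 4 pyrimidines on the gene's strand, it occurred in 24 of 52 members (46.2%) and in 54.7% of genes above the floor. Within 2 bases of the start, a window chosen after the data were seen, it occurred in 10 of 52 members (19.2%) and in 12% of genes above the floor. The median log2 ratio was 0.00 for those 10 members and 0.03 for the other members with a promoter. Start windows of the eIF2γ copies, an elongation factor and an eIF3 subunit are given from 10 bases before the start. Capitals mark the run only from its first C within 2 bases of the start. In Eif2s3x, Eef1a1 and Eif3f further pyrimidines stand directly before the capitals. The windows lie at chrY:1010585-1010614 (plus strand, Eif2s3y), chrX:94212632-94212661 (minus, Eif2s3x), chr9:78481705-78481734 (minus, Eef1a1) and chr7:108934405-108934434 (plus, Eif3f).
Eif2s3y: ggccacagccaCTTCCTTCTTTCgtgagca
Eif2s3x: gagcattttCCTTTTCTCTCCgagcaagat
Eef1a1: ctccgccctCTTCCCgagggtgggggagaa
Eif3f: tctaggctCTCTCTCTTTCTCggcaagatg
Both eIF2γ copies hold such a run at their start, and their log2 ratios were −1.19 for Eif2s3y and −0.10 for Eif2s3x.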

How the data were processed

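RNA sequencing of 1 ID2 and 1 control library was used. Per the labels' protocols, total RNA was harvested in Trizol and went into TruSeq RNA v2 libraries, a chemistry without strand marking. The submitters' processing notes name STAR, DESeq and the mm9 build. Versions, annotation and counter, not given in the sources used here, are unknown.

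The authors deposited a normalized signal value per gene and library, their mean, a fold that is the ratio of the ID2 to the control value, its log2, and a p-value and adjusted p-value per gene. Divided by a fixed step, all values came out whole within 0.01 (1.00 in the ID2 and 0.995 in the control library), and sorted steps were identical in both libraries, with a sum of 25224015 each. The values are therefore not read counts, depth is unknown, and no counting interval was computed.

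Log2 ratios used a pseudocount of 1. Higher, lower and equal were counted on whole steps. Folds of 2 and 1.5 were set by size, with no test, because each group has 1 library. The members and lists were chosen with earlier results of these data known. Named genes were the 10 highest and 10 lowest ratios, members 1.5-fold apart or at the highest value, paralog sets, the ends of each role, and up to 4 genes per list. Lengths and copies came from GENCODE M21 (1 transcript per gene, complete coding models and APPRIS principal forms preferred, and then the longest), promoters from RefSeq. The fold rule was run on simulated counts that held no variation between cultures. That run therefore does not show how the rule performs with 1 library per group. Alternatives were other pseudocounts, scalings, floors, folds and gene sets. Python 3.11.15, numpy 2.4.6 and pandas 2.3.3 were used.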

Additional observations from a re-analysis of the deposited data

How the results depend on the processing

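No paired analysis was possible because each group has 1 library. Of 416 recomputed values, 411 stayed within tolerance (0.1 on the log2 scale, 1.5 times for counts, the 95% Wilson interval for promoter shares), including all 335 ratios of single members. Scaling and pseudocount barely touch ratios of abundant genes by construction, so this says nothing of how far cultures would vary. The members' median lay between 0.00 and 0.02, and the ratio of Eif2s3y between −1.20 and −1.15. With a floor of 250, 1 member instead of 2 was at least 1.5-fold lower, because Eef1a2 has a mean under that floor. With a difference of 25% in place of 1.5-fold, 8 members were higher and 7 lower. With a fold of 4 in place of 2, 0 were lower. With the TOP run within 2 bases of the start, added after seeing the data, its share was 19.2%.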

Other observations

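Members with at least 80% of their transcript in 1 exon numbered 9, and their median log2 ratio was −0.07, against 0.02 for the others. Over all genes above the floor that matched GENCODE, the same class had a median of 0.07 in 2221 genes, against −0.01 for the rest. Across the 67 members, transcript length and log2 ratio had a Spearman correlation of 0.20, and across 12383 genes 0.10. These are descriptions across genes of the same pair of libraries. The Argonaute genes, which older annotations named Eif2c, stood under their Ago symbols in this table and were not members.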
